A study of Mus musculus with 71 samples.

Results

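Pro-B cells lacking the octapeptide of Pax5 were compared directly with pro-B cells lacking its homeodomain, across every gene expressed in either mutant. Expression was given as TPM, a read share that is corrected for gene length and library size. Genes above 1 TPM in at least 1 of 4 libraries were included, which gave 12602 of the 25579 genes listed. At the edge of this filter, *Foxr1* was kept with 1.002 TPM in its highest library and *Slc2a4* was left out with 0.998 TPM. The 4 libraries were 2 of Pax5(DOP/DOP) pro-B cells, written ∆OP here, and 2 of Pax5(DHD/DHD) pro-B cells, written ∆HD here, out of 71 samples in the series. Libraries of Pax5(DOP,HD/DOP,HD) cells (∆OP,HD, n = 2) and of Pax5(+/+) cells (wild-type, n = 2), with the same read length of 100 nucleotides, entered the same model and served as reference levels. All were poly(A) RNA-seq libraries from C57BL/6 pro-B cells, sorted ex vivo from bone marrow by B cell surface markers as Kit+ cells that lack CD2, IgM and IgD.

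The mutants were homozygous, so these cells carried no wild-type *Pax5* allele. The ∆OP allele came from embryonic stem cell targeting, after which Meox2-Cre removed a loxP-flanked neomycin cassette. The ∆HD allele came from CRISPR/Cas9 cleavage in C57BL/6 × CBA zygotes, and the ∆OP,HD allele from deletion of the homeodomain in ∆OP zygotes. These are germline alleles, carried by every cell of the mouse and not by B cells alone, and they were backcrossed to C57BL/6. The age of the mice and the number of animals behind each of these libraries were not given in the sources used here.

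Pax5 is the transcription factor that commits lymphoid progenitors to the B cell lineage. It binds DNA through its N-terminal paired domain, activates B cell genes and represses genes of other lineages. The octapeptide is a short conserved motif that binds corepressors of the Groucho (Tle) family. The homeodomain of Pax5 is partial, with only the first helix of a full homeodomain, and interacts with the TATA-binding protein, a subunit of the initiation complex TFIID.

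The octapeptide sequence is shown because the comparison turns on it. *Pax5* lies on the minus strand of chromosome 4 of GRCm38, from 44524757 to 44710487. The octapeptide was located as the window of 8 codons after the paired domain that is most alike in Pax2, Pax3, Pax7 and Pax8, in which 24 of 32 residues were identical. It fell at codons 179 to 186, in coding exon 5 of the RefSeq transcript (chr4:44679440-44679568, minus strand, 129 bases), where capitals mark the 8 codons. The exact end points of the ∆OP deletion were not used here.

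Exon 5: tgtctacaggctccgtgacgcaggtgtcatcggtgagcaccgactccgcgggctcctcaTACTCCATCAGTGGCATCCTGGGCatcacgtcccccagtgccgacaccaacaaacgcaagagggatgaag

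The homeodomain deletion was read from the repair template of the study, aligned to coding exon 6. The template lacked 78 bases, which are 26 whole codons, 229 to 254, so the reading frame is kept.

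The identity of the cells was checked first. All 20 pro-B cell markers were expressed, with a summed level of 26500 and 26000 TPM in the ∆OP libraries and 24900 and 23300 TPM in the ∆HD libraries. *Pax5* mRNA itself was at 480 and 434 TPM in ∆OP cells and at 468 and 460.5 TPM in ∆HD cells. Its groups overlapped, and the log2 fold change of ∆OP minus ∆HD was -0.02 (standard error, SE, 0.10 and adjusted p = 0.914, limma with Benjamini-Hochberg adjustment). The TPM values count reads over the whole gene, and therefore say nothing of the deleted codons. Recovered depths of the 4 libraries lay between 29139289 and 38625581 reads.

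Markers of other bone marrow cells differed between libraries, in part along with genotype. The 20 granulocyte markers summed to 8020 and 8340 TPM in ∆OP cells and to 553 and 1910 TPM in ∆HD cells. They also differed within the reference genotypes, at 990 and 7390 TPM in wild-type cells and 733 and 7400 TPM in ∆OP,HD cells. Macrophage and monocyte markers (25 genes) stood at 754 and 755 TPM in ∆OP cells against 213 and 280 TPM in ∆HD cells, and 8 basophil and mast cell markers at 295 and 389 TPM against 5.79 and 24.6 TPM. The macrophage and monocyte sum also varied within the reference genotypes, at 339 and 724 TPM in wild-type cells and 264 and 762 TPM in ∆OP,HD cells, where replicate 1 lay within the ∆HD range. Erythroid markers (14 genes listed) summed to 838 and 828 TPM against 496 and 501 TPM. That sum also varied within the reference genotypes, at 607 and 873 TPM in wild-type cells and 621 and 1180 TPM in ∆OP,HD cells. Sorting by surface markers as above is meant to remove such cells. In RNA from a sorted population, a change in the number of cells of a type and a change in RNA per cell cannot be told apart.

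**Figure D1:**
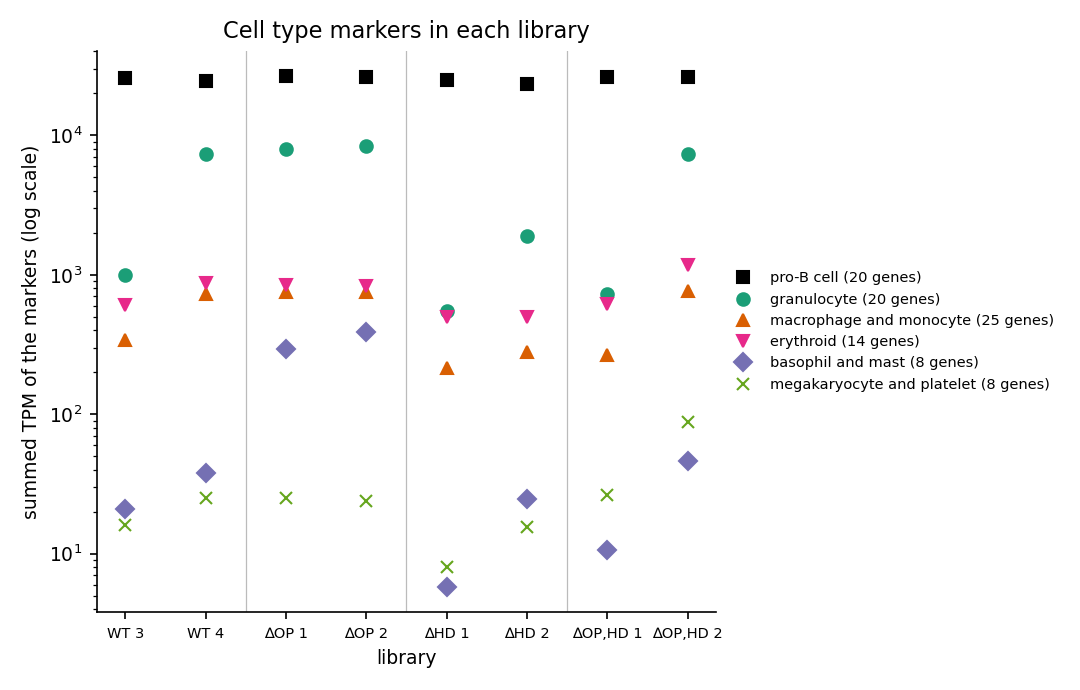
Summed TPM of the markers of 6 cell types (log scale) in each of the 8 libraries, 1 symbol for each cell type. Pro-B cell markers lay between 23300 and 26500 TPM throughout, granulocyte markers were high in both ∆OP libraries, wild-type replicate 4 and ∆OP,HD replicate 2, and basophil and mast cell markers were highest in the ∆OP libraries, at 295 and 389 TPM.

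Compared directly, 91 genes differed between ∆OP and ∆HD pro-B cells by more than 3-fold, with an adjusted p under 0.05 and either genotype averaging over 5 TPM. These are 0.722% of the genes tested. Among them, 63 genes (0.500%) were higher in ∆OP cells and 28 genes (0.222%) higher in ∆HD cells. The 2 ∆OP and the 2 ∆HD libraries did not overlap for any of the 91 genes, as was the case for 56.7% of all genes tested. With the adjusted p alone, 496 genes (3.94%) differed, 278 of them (2.21% of all genes) higher in ∆OP cells and 218 (1.73%) in ∆HD cells, and the fold change was 2 or less for 273 of these. Immunoglobulin genes and canonical histone genes (symbols beginning with Hist) were left out of these counts.

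The balance between the directions depended on the model. DESeq2 on the recovered reads gave 128 genes higher in ∆OP cells and 28 higher in ∆HD cells. With the granulocyte marker level as a covariate, a choice made after seeing the data, 40 genes were higher in ∆OP cells and 43 higher in ∆HD cells, and 55 of the 91 genes were still called. Of the 91 genes, 13 belong to one of the 11 marker lists of other cell types, 11 of them higher in ∆OP cells.

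**Figure D2:**
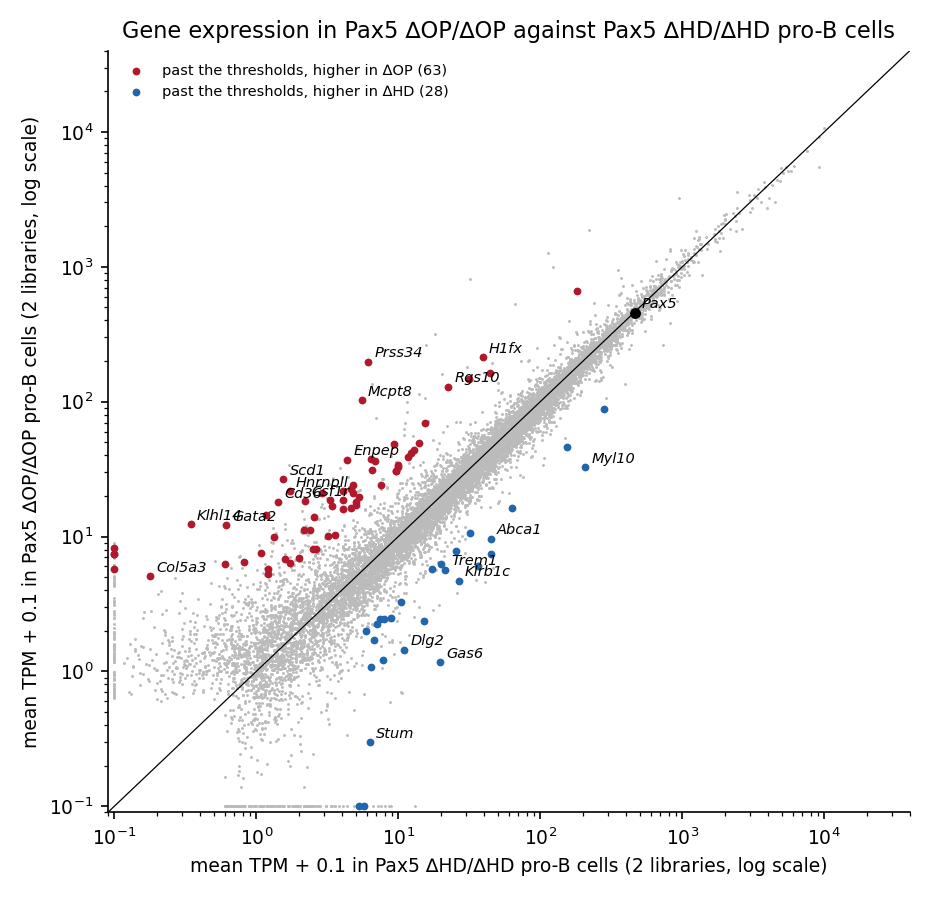
Mean TPM + 0.1 of each of the 12602 genes in ∆HD cells (x axis) and ∆OP cells (y axis), both on log scales and each the mean of 2 libraries, with the line of equal expression. The 63 red genes lie above the line and the 28 blue genes below it, while *Pax5* (black) lies on it.

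Genes of the octapeptide type were defined by high levels in both genotypes that lack the octapeptide. For each of the 91 genes, the level of wild-type and of ∆OP,HD cells was placed on the line between the ∆HD mean (0) and the ∆OP mean (1) on the log2 scale, and called near ∆HD under 0.25 and near ∆OP over 0.75. Among the 63 genes higher in ∆OP cells, wild-type cells were near ∆HD and ∆OP,HD cells near ∆OP for 3 genes: *Rgs10*, *Hnrnpll* and *Eef1akmt1*. *Rgs10* encodes a regulator of G protein signalling. It was at 132 and 126 TPM in ∆OP cells and at 23.4 and 21.4 TPM in ∆HD cells. ∆OP,HD cells held 126 and 144 TPM and wild-type cells 21.5 and 25.4 TPM, so the libraries fell into a high and a low pair of genotypes with no overlap. The log2 fold change of ∆OP minus ∆HD was 2.52 (SE 0.12, adjusted p = 0.000607, limma), and that of ∆HD minus ∆OP,HD had an adjusted p of 0.0005.

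*Hnrnpll* encodes hnRNPLL, an RNA-binding protein that controls the alternative splicing of CD45. Its TPM were 19 and 24.2 in ∆OP cells and 1.20 and 2.04 in ∆HD cells. In ∆OP,HD cells they were 18 and 18.4, close to the ∆OP level. *Eef1akmt1*, which encodes a lysine methyltransferase of the translation factor eEF1A, was at 46.4 and 41.1 TPM against 12.1 and 13.5 TPM (log2 fold change 1.76 ± 0.15 SE, adjusted p = 0.00164). Its wild-type level of 7.99 and 8.81 TPM lay below that of ∆HD cells, though the difference of ∆HD from wild-type was not past the threshold (adjusted p = 0.15). *Dennd3*, a regulator of Rab GTPases, and *Cgas*, the cytosolic DNA sensor, had wild-type levels near ∆HD and ∆OP,HD levels between the single mutants. *Dennd3* was at 43.7 and 39.3 TPM in ∆OP cells and at 12.4 and 11.9 TPM in ∆HD cells. *Cgas* was at 10.1 and 9.75 TPM against 2.87 and 3.32 TPM. As these 5 genes were selected by the study from these libraries, their direction is not independent evidence.

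Genes of the homeodomain type were defined by low levels in both genotypes that lack the homeodomain. Wild-type cells were near ∆OP and ∆OP,HD cells near ∆HD for 6 of the 63 genes: *Col5a3*, *Enpep*, *Pde9a*, *Grb7*, *Spsb4* and *Rd3l*. *Col5a3*, a collagen gene, was at 4.42 and 5.6 TPM in ∆OP cells. It was listed at 0 in ∆HD replicate 1 and at 0.155 TPM in replicate 2, and reached 0.0398 and 0.0404 TPM in ∆OP,HD cells against 5.94 and 6.25 TPM in wild-type cells. *Col5a3* thus separated the genotypes with and without the homeodomain by the whole of its expression, with a log2 fold change of 4.99 ± 0.61 (SE, adjusted p = 0.00716). *Enpep* encodes glutamyl aminopeptidase, the BP-1 antigen of early B cells. It was at 43.1 and 31 TPM in ∆OP cells and 4.73 and 3.81 TPM in ∆HD cells, a log2 fold change of 3.08 ± 0.32 (SE, adjusted p = 0.00338). The ∆OP,HD libraries held 3.85 and 7.45 TPM and the wild-type libraries 25.4 and 29.7 TPM. *Pde9a*, a cyclic GMP phosphodiesterase gene, was at 45.4 and 51.6 TPM against 9.99 and 8.57 TPM, and *Grb7*, an adaptor gene, at 154 and 175 TPM against 52.6 and 35.5 TPM.

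In other genes, ∆OP cells had the highest mean, and wild-type or ∆OP,HD cells lay between the single mutants. *Klhl14*, a Kelch-family gene that is expressed in B cells, was at 12.3 and 12.1 TPM in ∆OP cells and at 0.175 and 0.315 TPM in ∆HD cells. Wild-type cells held 1.1 and 2.34 TPM and ∆OP,HD cells 0.0403 and 0.533 TPM. The direct difference of 5.19 on the log2 scale passed the test (SE 0.76, adjusted p = 0.0126), while neither mutant passed the test against wild-type (adjusted p = 0.13 for ∆OP and 0.27 for ∆HD). *4930426D05Rik* was at 7.16 and 8.96 TPM in ∆OP cells and at 0 in both ∆HD libraries, at least 61-fold higher against a floor of 3 reads per ∆HD library. *Tmem132e* was at 130 and 166 TPM against 31.9 and 30.6 TPM. *Cd36*, the scavenger receptor for fatty acids and lipoproteins, was at 20.4 and 15.1 TPM in ∆OP cells and 1.12 and 1.53 TPM in ∆HD cells, with 8.90 and 14.3 TPM in wild-type cells. Its log2 fold change was 3.65 (SE 0.31, adjusted p = 0.00164), and it stayed past the thresholds in each of 22 alternative settings of the model, filter, scaling and libraries.

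Most of the 91 genes lay between these extremes. Wild-type cells were between the 2 mutants for 35 of the 63 genes higher in ∆OP cells and for 20 of the 28 genes higher in ∆HD cells, with a median place of 0.548 and 0.508. Tested against wild-type in the same model, 8 of the 63 genes were past an adjusted p of 0.05 and a 3-fold change in ∆OP cells, and 14 in ∆HD cells. For the 28 genes higher in ∆HD cells these numbers were 3 and 4. The direct comparison and the comparisons with wild-type share libraries, so they are not independent. The 91 genes were selected for a large difference between the mutants. The share of all genes past these cuts against wild-type is not given here, so the counts describe the 91 genes alone. *Dlg2*, a scaffold protein gene, had 1.35 TPM in both ∆OP libraries, 3.65 and 4.35 TPM in wild-type cells, and 10.8 and 11.0 TPM in ∆HD cells. It differed from wild-type in both mutants, with an adjusted p of 0.049 in each.

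**Figure D3:**
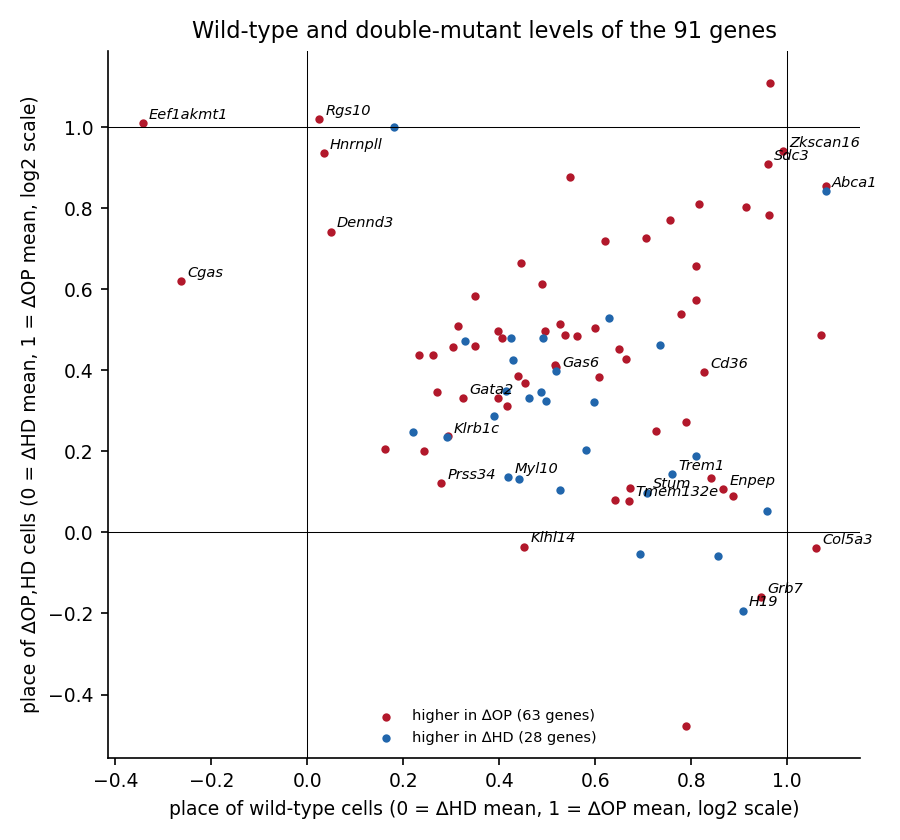
Place of wild-type cells (x axis) and of ∆OP,HD cells (y axis) for each of the 91 genes, on a log2 scale where 0 is the mean of the ∆HD libraries and 1 the mean of the ∆OP libraries. *Rgs10*, *Hnrnpll* and *Eef1akmt1* lie at the upper left, *Col5a3*, *Enpep* and *Grb7* at the lower right, and most genes between 0 and 1 on both axes, with a median place of wild-type cells of 0.548 for genes higher in ∆OP cells.

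The genes higher in ∆HD cells included few that are markers of other cell types. *Gas6* encodes the ligand of the receptor tyrosine kinases Tyro3, Axl and Mertk. It was at 1.09 and 1.06 TPM in ∆OP cells and at 22.9 and 16.1 TPM in ∆HD cells. The change of -4.04 on the log2 scale had a standard error of 0.25 and an adjusted p of 0.000786, and *Gas6* differed from wild-type (4.38 and 4.49 TPM) in both mutants, with an adjusted p of 0.026 for ∆OP and 0.017 for ∆HD. *Stum*, a gene of the nervous system, was at 0.221 and 0.178 TPM in ∆OP cells against 6.68 and 5.76 TPM in ∆HD cells. Its level in ∆OP,HD cells, 4.83 and 4.32 TPM, was near that of ∆HD cells. *Myl10*, a myosin light chain gene that is expressed in early B cells, was at 33.9 and 31.6 TPM against 199 and 216 TPM, with 132 and 196 TPM in ∆OP,HD cells and 94.4 and 96.9 TPM in wild-type cells. *Myl10* was lowest in ∆OP cells, and its ∆OP,HD level was near that of ∆HD cells. *Klrb1c*, the NK1.1 receptor gene, had 4.66 and 4.57 TPM in ∆OP cells and 26.4 and 26.8 TPM in ∆HD cells. *Kcng1*, a potassium channel subunit gene, had 15.4 and 17.0 TPM against 60.7 and 66.3 TPM. *Kcng1* also had a ∆OP,HD level near that of ∆HD cells. *Klrb1c* fell just under the same cut of 0.25, with a place of 0.236. Its ∆OP,HD mean of 17.6 TPM was closer to the wild-type mean of 16.0 TPM than to the ∆HD mean of 26.6 TPM.

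*Trem1*, *H19*, *Kcng1*, *Adamtsl4* and *Arhgap22* were the 5 genes with wild-type levels near ∆OP and ∆OP,HD levels near ∆HD. *Abca1*, the ATP-binding cassette transporter of cholesterol efflux, was different. It was at 45.0 and 44.8 TPM in ∆HD cells, against 10.1 and 9.04 TPM in ∆OP cells, 6.84 and 10.5 TPM in wild-type cells and 14.6 and 10.1 TPM in ∆OP,HD cells. *Abca1* was therefore high in ∆HD cells alone among these libraries, though its difference from ∆OP,HD cells did not pass the test (adjusted p = 0.098).

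**Figure D4:**
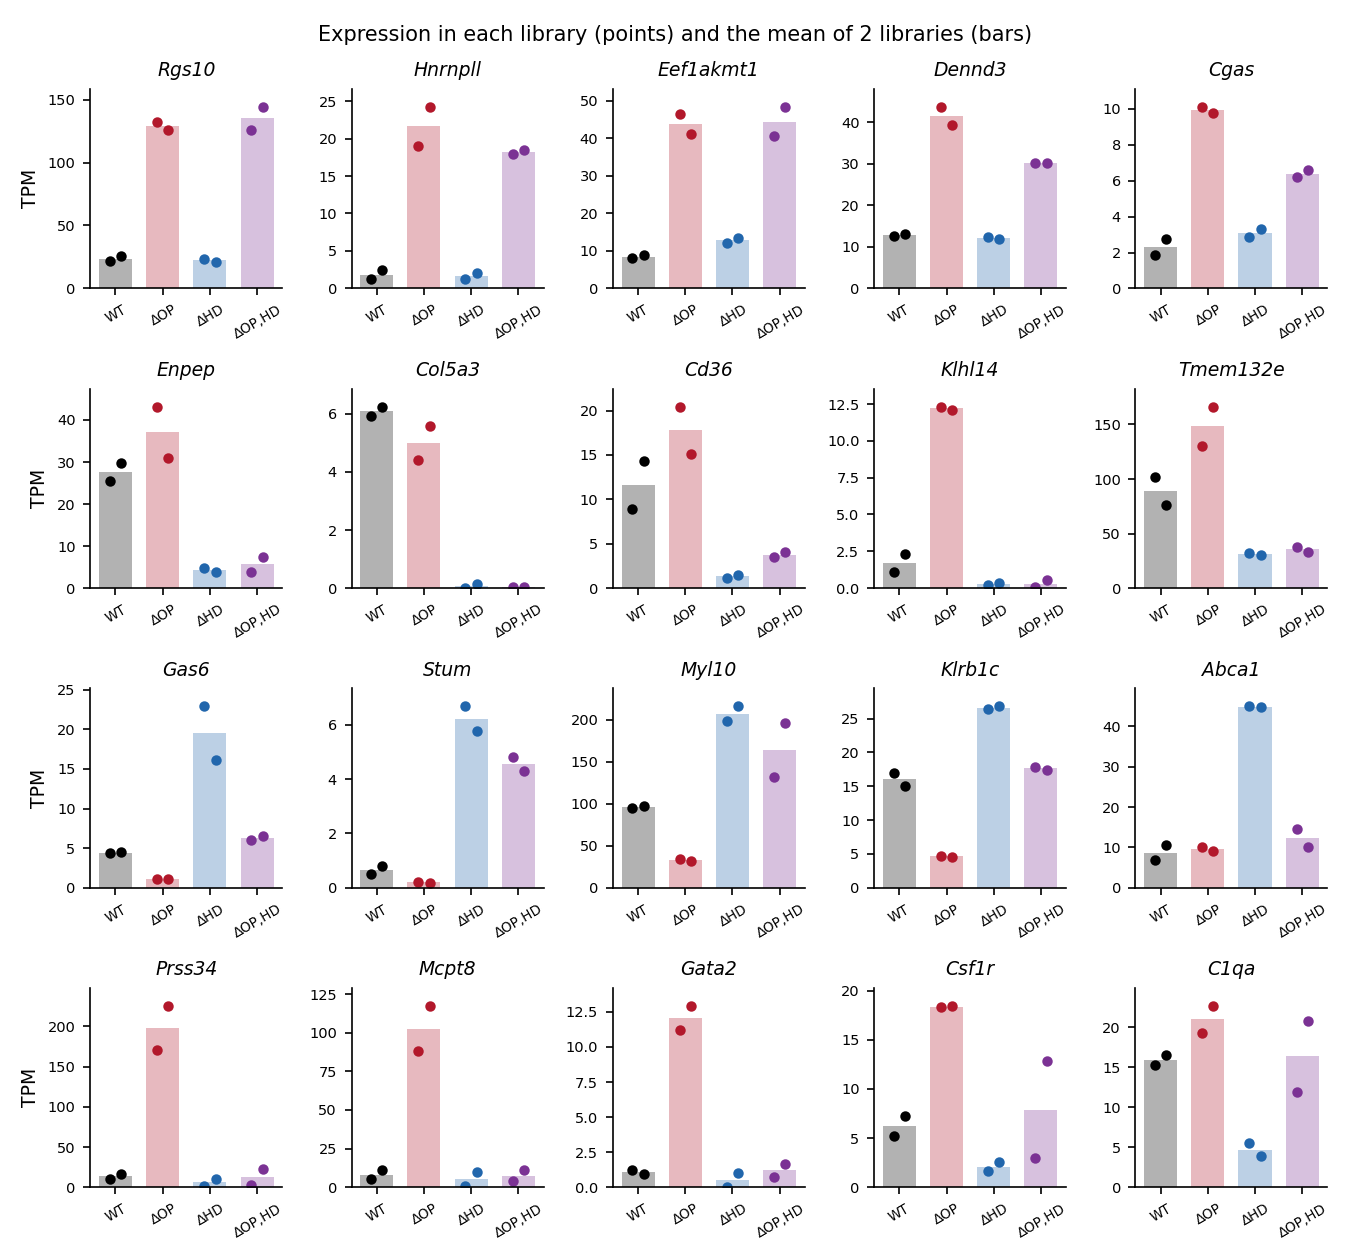
TPM in each library (points) and the mean of 2 libraries (bars, from 0) for 20 genes in wild-type, ∆OP, ∆HD and ∆OP,HD pro-B cells. The first row shows genes high in both genotypes without the octapeptide, such as *Rgs10*, the second row genes low in ∆HD and ∆OP,HD cells, the third row genes highest in ∆HD cells, such as *Abca1* at 45.0 and 44.8 TPM, and the last row markers of basophils and macrophages.

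Genes of basophils were higher in both ∆OP libraries than in any of the 6 other libraries. *Prss34* and *Mcpt8* encode serine proteases of basophils, *Hdc* the enzyme that makes histamine, and *Gata2* a transcription factor of progenitors, basophils and mast cells. *Prss34* was at 171 and 225 TPM in ∆OP cells and at 2.15 and 9.94 TPM in ∆HD cells, and *Mcpt8* at 87.9 and 117 TPM against 1.07 and 9.80 TPM. *Gata2* was at 11.2 and 12.9 TPM against 0.0381 and 0.990 TPM, a log2 fold change of 4.97 ± 0.89 (SE, adjusted p = 0.0264). Of 6 basophil and mast cell markers tested, 4 were past the thresholds, all higher in ∆OP cells, against 0.500% of all genes. The median log2 fold change of the 6 markers was 4.35, against -0.055 over all genes tested. The ∆OP levels of these 4 genes were also above both wild-type and both ∆OP,HD libraries, where *Prss34* reached at most 22.3 TPM. With wild-type as the reference, none of the 4 passed the test in ∆OP cells (adjusted p = 0.12, 0.11, 0.12 and 0.13 for *Prss34*, *Mcpt8*, *Gata2* and *Hdc*). The summed granulocyte markers of wild-type replicate 4 (7390 TPM) and ∆OP,HD replicate 2 (7400 TPM) were close to those of ∆OP cells, while their basophil markers were at 37.6 and 46.0 TPM. With the granulocyte marker level as a covariate, the difference was 3.22 for *Prss34* and 3.89 for *Gata2* on the log2 scale, and neither was called. Whether basophils or their progenitors took part in the sorted ∆OP cells was not tested.

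Of 21 macrophage and monocyte markers tested, 6 were past the thresholds, all higher in ∆OP than in ∆HD cells, against 0.500% of all genes. The other 15 did not pass. *C1qa*, *C1qb* and *C1qc*, the chains of complement C1q, *Hmox1*, the haem oxygenase of iron recycling, *Apoe*, a lipoprotein of macrophages, and *Csf1r*, the receptor of M-CSF, were these 6 genes. *C1qa* was at 19.3 and 22.7 TPM in ∆OP cells and at 5.49 and 3.94 TPM in ∆HD cells. Wild-type cells held 15.3 and 16.5 TPM, near the ∆OP level. *Hmox1* was at 36.2 and 31 TPM in ∆OP cells, 11.3 and 8.52 TPM in ∆HD cells and 36.0 and 38.4 TPM in wild-type cells, where it was also near the ∆OP level. *Csf1r* was at 18.3 and 18.4 TPM in ∆OP cells, 1.66 and 2.53 TPM in ∆HD cells and 5.22 and 7.24 TPM in wild-type cells. The 21 macrophage markers had a median log2 fold change of 1.71, and 19 of them were above both ∆HD libraries in both ∆OP libraries, against 24.5% of all genes. With the granulocyte marker level as a covariate, *C1qa* was still called at 1.86 on the log2 scale, and *Csf1r*, at 1.87, was not. The part of macrophages in these differences was not tested. *Cebpa*, a transcription factor of myeloid cells, was at 9.79 and 18.9 TPM in ∆OP cells and at 0.75 and 1.41 TPM in ∆HD cells. It also passed the adjusted p against wild-type, with 1.34 and 1.89 TPM there (log2 fold change 3.60 of ∆OP minus ∆HD, adjusted p = 0.00825, and adjusted p = 0.048 for ∆OP against wild-type).

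All 20 granulocyte markers were above both ∆HD libraries in both ∆OP libraries, against 24.5% of all genes. Their median log2 fold change was 3.22, and none passed the test. *Mpo*, the myeloperoxidase gene, was at 646.5 and 970 TPM against 6.92 and 57.1 TPM (log2 fold change 5.30 ± 1.19 SE, adjusted p = 0.0516). *S100a9*, a calcium-binding protein gene of neutrophils, varied within genotypes. It stood at 1062 and 848 TPM in ∆OP cells and 114 and 592 TPM in ∆HD cells, but at 184 and 3140 TPM in the wild-type libraries. In all, 161 genes exceeded a 3-fold change and 5 TPM without passing the adjusted p, of which 129 were higher in ∆OP cells. No erythroid, megakaryocyte, stromal, plasma cell or conventional dendritic cell marker passed the adjusted p (11, 6, 5, 6 and 3 tested), with medians of 1.87, 0.995, 0.991, -0.151 and 0.51. Of 10 plasmacytoid dendritic cell markers tested, *Irf8* and *Spib* passed as higher in ∆OP cells and *Ly6d* as higher in ∆HD cells. Over all genes these shares were 2.21% and 1.73%, and the median of the list was 0.324.

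Regulators and signalling genes of the B lineage changed less, by under 3-fold. Of 26 B-lineage transcription factors, 5 passed the adjusted p and all 5 were higher in ∆OP cells, against 2.21% of all genes called in that direction. These were *Spi1*, *Spib*, *Irf8*, *Bach2* and *Id3*. *Spib*, an ETS factor, was at 646 and 639 TPM in ∆OP cells and at 385 and 359 TPM in ∆HD cells. *Id3*, an inhibitor of E proteins, was at 651 and 784 TPM against 379 and 389 TPM, and its log2 fold change was 0.90 (SE 0.14, adjusted p = 0.0167). The median over the 26 factors was 0.237. *Spi1* was the exception in its reference levels, with 109 and 126.5 TPM in wild-type cells, close to the 124 and 129 TPM of ∆HD cells.

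Signalling through the pre-B cell receptor split in both directions, with 4 of 28 genes higher in ∆OP cells and 3 higher in ∆HD cells by the adjusted p, against 2.21% and 1.73% of all genes. *Pik3ap1* encodes BCAP, an adaptor of PI3 kinase signalling in B cells. It was at 819 and 844 TPM in ∆OP cells, 371 and 366 TPM in ∆HD cells and 598 and 520 TPM in wild-type cells. Its log2 fold change was 1.17 (SE 0.09, adjusted p = 0.00162). *Blnk* and *Fcrla* were also higher in ∆OP cells, while the kinase gene *Blk*, *Plcg2* and *Sla2* were higher in ∆HD cells. *Blk* was at 80.95 and 70.05 TPM against 142 and 131 TPM.

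Of 11 genes of V(D)J recombination, 2 passed the adjusted p, both higher in ∆HD cells, against 1.73% of all genes called in that direction, and the median log2 fold change was 0.00694. *Dntt* encodes terminal deoxynucleotidyl transferase, which adds bases at the joints, and *Xrcc6* encodes Ku70. *Dntt* was at 3060 and 3007 TPM in ∆OP cells and at 4728 and 4342 TPM in ∆HD cells (log2 fold change -0.58 ± 0.09 SE, adjusted p = 0.0162). *Xrcc6* had 598 and 552 TPM against 819 and 807 TPM. *Rag1*, a subunit of the recombinase, was at 537 and 430 TPM in ∆OP cells and at 510 and 448 TPM in ∆HD cells, with a difference of 0.01 and a standard error of 0.15 on the log2 scale.

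Transcripts of immunoglobulin V segments were lower in ∆OP cells. The 115 Ighv features tested, the variable segments of the heavy chain on chromosome 12, summed to 736 and 624 TPM in ∆OP cells and to 1200 and 1240 TPM in ∆HD cells. Wild-type cells held 903 and 1100 TPM, and ∆OP,HD cells 984 and 1030 TPM. Of these features, 17 passed the adjusted p and all were higher in ∆HD cells, 12 of them among the 56 Ighv1 segments. Over all genes tested, 1.73% passed as higher in ∆HD cells, a count that leaves immunoglobulin genes out. The median log2 fold change of the Ighv1 segments was -1.66, or -1.47 with segments at 0 in 1 genotype set to their bound. *Ighv1-74* was at 5.83 TPM on average in ∆OP cells and at 37.4 TPM in ∆HD cells, and 5 of 52 Igkv features also passed, all higher in ∆HD cells. V segments resemble each other and are short, so reads of single segments are uncertain, and the sums are firmer than their parts.

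Genes of lymphoid progenitors and T cells included several that were higher in both homeodomain mutants. *Ly6d*, a surface marker of B cell-biased lymphoid progenitors, was at 281 and 248 TPM in ∆OP cells, 768 and 703 TPM in ∆HD cells, 746 and 811 TPM in ∆OP,HD cells and 298 and 239 TPM in wild-type cells. Its log2 fold change of ∆OP minus ∆HD was -1.48 (SE 0.12, adjusted p = 0.00164). *Tcf7*, the TCF-1 gene, and *Lat*, an adaptor gene of T cell receptor signalling, showed the same order at lower fold changes. *Tcf7* had 33.7 and 38.1 TPM in ∆OP cells against 61.5 and 61.5 TPM in ∆HD cells. Of 10 T and NK cell markers tested, 5 passed the adjusted p as higher in ∆HD cells and *Zap70* as higher in ∆OP cells, against 1.73% and 2.21% of all genes. Not all of the 5 followed the order of *Ly6d*. *Thy1* averaged 43.4 TPM in ∆HD cells and 26.0 TPM in ∆OP,HD cells, against 38.0 TPM in wild-type cells. *Klrb1c* averaged 26.6 TPM in ∆HD cells, 17.6 TPM in ∆OP,HD cells and 16.0 TPM in wild-type cells. All 8 Gimap genes, which encode GTPases of lymphocytes, had negative fold changes with a median of -0.693, and *Gimap3*, *Gimap6* and *Gimap7* passed the adjusted p, against 1.73% of all genes higher in ∆HD cells. *Gimap6* was at 360 and 308 TPM in ∆OP cells and 548 and 540 TPM in ∆HD cells.

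Lipid genes moved in both directions. *Scd1*, the desaturase that makes oleic acid, was at 27.3 and 25.9 TPM in ∆OP cells and at 0.753 and 2.16 TPM in ∆HD cells, with 5.76 and 11.8 TPM in wild-type cells. Its log2 fold change was 4.27 (SE 0.49, adjusted p = 0.00533). *Scd1* and *Cd36* passed the adjusted p as higher in ∆OP cells, and *Abca1*, *Fasn* and *Npc1* as higher in ∆HD cells. These were out of 26 sterol and lipid genes with a median of -0.0973, against 2.21% and 1.73% of all genes. Among 13 MHC class II genes, *H2-Eb1* and *H2-DMb2* were past the thresholds and 4 passed the adjusted p, all higher in ∆OP cells, against 2.21% of all genes. *H2-Eb1* was at 26.4 and 21.9 TPM against 3.71 and 5.68 TPM (adjusted p = 0.0486, limma). It varied within the reference genotypes, at 5.11 and 11.4 TPM in wild-type cells and 5.92 and 16.2 TPM in ∆OP,HD cells. Both genes were higher in wild-type replicate 4 and ∆OP,HD replicate 2, the reference libraries with high granulocyte markers. The part of other cell types in these differences was not tested. Among 30 interferon-stimulated genes, 7 passed as higher in ∆OP cells and *Tmem173*, which encodes STING, as higher in ∆HD cells, with 72.4 and 59.8 TPM against 128 and 130 TPM. Over all genes tested these shares were 2.21% and 1.73%, and the median of the list was 0.371. Of 35 cell cycle genes, 4 passed, all higher in ∆OP cells, against 2.21% of all genes, and the median was 0.131. Of 10 heat shock genes, which rise during cell preparation, *Hsp90aa1* and *Hsph1* passed, both higher in ∆HD cells, against 1.73% of all genes, and the median was -0.475. *Hsph1* had 28.0 and 27.1 TPM in ∆OP cells against 69.3 and 81.9 TPM in ∆HD cells.

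The partners of the deleted domains were measured as well. Of the 6 Groucho family genes, *Tle1* and *Aes* passed the adjusted p, both higher in ∆HD cells, against 1.73% of all genes. *Aes* encodes a short family member that lacks the C-terminal repeats. It was at 452.5 and 499 TPM in ∆OP cells, 714 and 651 TPM in ∆HD cells, 360 and 331 TPM in ∆OP,HD cells and 664 and 639 TPM in wild-type cells, thus lowest where both domains were absent (adjusted p = 0.070 for ∆OP against ∆OP,HD). The log2 fold change of ∆OP minus ∆HD was -0.52 (SE 0.09, adjusted p = 0.0257). *Tle3*, the next most abundant member, was at 195 and 222 TPM against 194 and 187 TPM. None of the 17 TFIID genes passed the adjusted p (median -0.0355).

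Among the genes that the study names for the central domains, some did not differ detectably between the single mutants. *Ptpn3*, a protein tyrosine phosphatase gene, was at 10.9 and 9.76 TPM in ∆OP cells and 11.3 and 11.7 TPM in ∆HD cells, against 0.898 and 0.815 TPM in wild-type cells. It was higher than wild-type in both mutants (adjusted p = 0.00124 for ∆OP and 0.00177 for ∆HD). The direct difference was -0.15 with a standard error of 0.20 on the log2 scale (adjusted p = 0.692). *Orm2* was at 15.65 and 15.75 TPM against 2.97 and 10.4 TPM, and *Hdac11* at 26.6 and 21.25 TPM against 18.9 and 11.6 TPM. Neither passed the test (adjusted p = 0.294 and 0.18). *Notch1* and *Notch2* differed by -0.18 and 0.17 on the log2 scale, with standard errors of 0.14 and 0.18. Of the 16 genes of this list, 8 were past the thresholds as higher in ∆OP cells and *Abca1* as higher in ∆HD cells, against 0.500% and 0.222% of all genes. The study picked the genes past the thresholds from these libraries, *Enpep*, *Col5a3*, *Cd36* and *Abca1* included, so the count is a description and no independent evidence. The list also holds *Pax5*, the targeted gene, and *Notch1* and *Notch2*, which the study reported as not derepressed in either single mutant.

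The ∆OP and ∆HD alleles were made in cells of different origin, so genes near *Pax5* were counted apart. Within 5 Mb of *Pax5*, 11 of 96 genes tested passed the adjusted p (11.5%), between 5 and 20 Mb 6 of 75 (8%), and beyond 20 Mb 29 of 594 (4.88%), against 449 of 11583 genes on other chromosomes (3.88%). The median absolute log2 fold change was 0.241, 0.282, 0.216 and 0.234 in the same order. Past all thresholds were *Tbc1d2*, a gene of Rab GTPase regulation at 1.89 Mb, *Abca1* at 8.32 Mb and *Zkscan16*, a zinc finger gene at 14.2 Mb. *Zkscan16* was at 6.32 and 5.02 TPM in ∆OP cells, 1.07 and 1.16 TPM in ∆HD cells, 6.01 and 4.38 TPM in ∆OP,HD cells and 4.65 and 6.64 TPM in wild-type cells. *Tbc1d2* was at 8.98 and 13.3 TPM against 1.66 and 2.94 TPM. *Ccl27a*, a chemokine gene at 2.75 Mb, was listed at 0 in both ∆OP and both ∆OP,HD libraries and at 1.81 and 1.76 TPM in ∆HD cells, with 1.89 and 1.67 TPM in wild-type cells. *Ccl27a* was thus at 0 in all 4 libraries that carry the ∆OP deletion, and at least 24.7-fold higher in ∆HD cells against a floor of 3 reads per library. Whether DNA of another strain near *Pax5* took part in these differences was not tested.

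**Figure D5:**
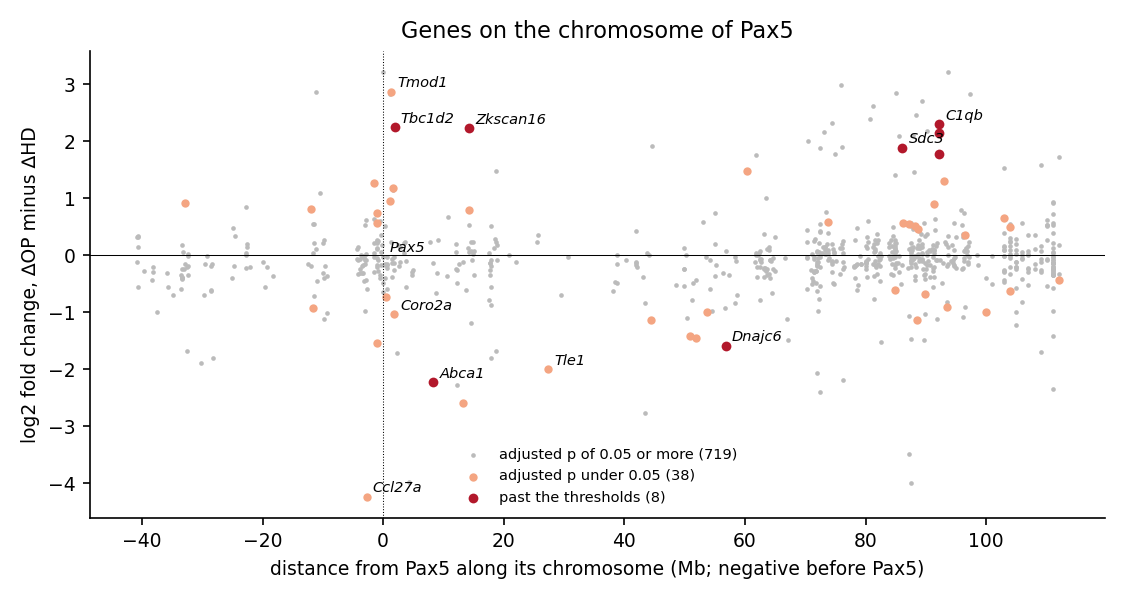
Log2 fold change of ∆OP minus ∆HD (y axis) for each gene tested on chromosome 4, against its distance from *Pax5* in Mb (x axis, negative before *Pax5*). Orange points passed the adjusted p and red points all thresholds, with 11 of 96 genes passing the adjusted p within 5 Mb, among them *Tbc1d2*, and the C1q genes far from *Pax5*.

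The precision of these values is set by 2 libraries for each genotype. Nothing in the labels says that replicates came from separate animals, so p-values measure the spread between these libraries. The replicates were separate libraries, since chi-square per degree of freedom between their reads was 18.4 for ∆OP and 23.6 for ∆HD cells. Leaving out 1 ∆OP or 1 ∆HD library lowered the count of genes called, with 1 library then assumed to vary like the other genotypes. This could not change the direction of any of the 91 genes, as their ∆OP and ∆HD libraries do not overlap. The 13 genes past the thresholds in each of 22 alternative settings were *2510009E07Rik*, *Cd36*, *Dennd3*, *Dkk3*, *Dlg2*, *Efhd1*, *Gas6*, *Kcng1*, *Klrb1c*, *Myl10*, *Pde9a*, *Rgs10* and *Tmem132e*. *Mir1982*, *Mir8091* and *Snora75*, features shorter than 300 nucleotides, were among the 91 genes and rest on at most 17 reads in any ∆OP or ∆HD library. No reads could be recovered for *BC100530*, which has no implied length.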

How the data were processed

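RNA-seq of the 8 libraries was analysed from the deposited TPM values of 25579 genes. Per the submitters' notes and the study's methods, the authors cut the 100-nucleotide reads to 50 nucleotides, used STAR 2.4.2a and the GRCm38/mm10 assembly for alignment, counted reads per RefSeq gene with Rsubread and deposited the raw counts for some libraries and TPM for these 8. TPM were converted back to whole reads with the gene lengths implied by deposited raw counts, and 100% of the values tested were whole within 0.001. Depths were 28928773 to 38625581 reads.

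log2(TPM + 0.1) was fitted with limma 3.58.1 (R 4.3.3; lmFit and eBayes with trend, two-sided) over 4 genotypes of 2 libraries, and ∆OP minus ∆HD was tested with Benjamini-Hochberg adjustment over 12602 genes. Fold changes on this scale understate those of low genes. Genes were called at an adjusted p under 0.05, a change above 3-fold, with either genotype averaging over 5 TPM. Scripts were tested on simulated data. Alternatives changed the pseudocount, filter, scaling, variance model, libraries and test. On the recovered reads, edgeR 4.0.16 called 136 genes and DESeq2 1.42.0 called 156 genes. Groups followed the labels. Replicate numbers were not treated as pairs, as no label pairs the samples. Deviations of same-numbered libraries correlated at 0.0169, 0.0148 and 0.103, which cannot show whether a sort or batch was shared.

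Named genes were the 15 largest changes in each direction with non-overlapping groups, the 5 smallest adjusted p values in each direction, called members of the gene lists (or up to 4 most abundant members of a list with none), genes named by the study, and called genes within 20 Mb of *Pax5*. Other genes, such as *Grb7*, *Mpo*, *Pik3ap1*, *Blk*, *Spi1*, *Lat*, *Ccl27a* and *Ighv1-74*, were chosen after their values were seen. The genes and lists were chosen with earlier results of these data known. Coordinates are of GENCODE M21 and exons of RefSeq, both on GRCm38. Some items are not reported here.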

Additional observations from a re-analysis of the deposited data

How the results depend on the processing

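None of the 134 genes chosen by the naming rules changed direction together with a call in any setting. Genes chosen after their values were seen were checked only where they are among the 91. The 91 genes had the same sign in each setting where they were fitted. Where only libraries were left out, their non-overlapping groups fixed that sign in advance. Against 91 genes called (63 higher in ∆OP cells, 28 higher in ∆HD cells) and 496 with an adjusted p under 0.05, the 4 libraries alone gave 199 genes (157 higher in ∆OP cells) and 838, and DESeq2 156 genes (128 higher in ∆OP cells) and 1187. edgeR gave 109 genes higher in ∆OP cells. Without a trend in the variance, 38 genes were higher in ∆OP cells and 231 passed the adjusted p, and without a filter on low values 304 passed it. The granulocyte covariate, chosen after seeing the data, gave 40 genes higher in ∆OP cells and 43 higher in ∆HD cells. Leaving out 1 library gave 19 to 128 genes, 9 to 97 of them higher in ∆OP cells and 10 to 36 higher in ∆HD cells, and 24 to 787 with an adjusted p under 0.05. The lowest counts were those without ∆OP replicate 2, and a lone library was then assumed to vary like the other genotypes. The cause of these changes was not tested.

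With the replicate number as a block over the 6 mutant libraries, 133 genes were called, 101 of them higher in ∆OP cells, and 88 of the 91 genes were among them. The labels do not say whether libraries of the same number share a sort, so this is given for completeness. Summed granulocyte markers were higher in replicate 2 than in replicate 1 of each mutant genotype. Depth limits genes with few reads, and 2 libraries per genotype limit all others.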
